A study of Mus musculus with 6 samples.

Results

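The genes described here are 34 mouse genes of programmed cell death: the BCL2 family, caspases with their activators and inhibitors, the necroptosis genes Ripk3 and Mlkl, and p53 (Trp53) with its regulators Mdm2 and Mdm4. They were chosen by name, with no measured value in the rule, though with earlier results of these data known. They are 34 of the 24054 genes in the count table. All 34 had a row, and 32 had enough counts to test. Casp14 had 0 counts in every library, and Hrk had 1, 0 and 1 counts in the control libraries and 4, 1 and 0 in the K5-RANKL libraries.

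The study sequenced messenger RNA of mouse salivary glands. The 3 K5-RANKL libraries came from K5-rtTA:TetO-RANKL mice, in which the keratin 5 (K5) promoter, active in basal epithelial cells, drives a doxycycline-dependent activator that turns on a RANKL transgene. RANKL, encoded by Tnfsf11, is a TNF family cytokine that activates NF-κB through its receptor RANK. The 3 control libraries came from monogenic mice, that is, with 1 transgene only, and the labels leave out which one. All mice, controls included, were fed doxycycline (in the diet and the drinking water) for 2 weeks, starting when they were 9 weeks old. Each library was a pool of gland tissue from 5 mice, so the spread between libraries is a spread between pools and not between animals. The labels name neither strain nor sex, nor which salivary gland was taken.

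In the mitochondrial pathway of apoptosis, BH3-only proteins sense damage and bind the prosurvival BCL2 proteins, and BAX and BAK1 then open the outer mitochondrial membrane. Released cytochrome c assembles APAF1 and caspase-9 into the apoptosome, which starts the caspase cascade. Death receptors act through FADD and caspase-8 instead, and where caspase-8 is inactive RIPK3 phosphorylates MLKL, which breaks the plasma membrane in necroptosis. p53 raises transcription of several BH3-only genes, of Bax and of Mdm2, whose product degrades p53. In the salivary gland, p53-dependent apoptosis of acinar cells is best known from radiation injury.

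Depth and composition bear on every value below. Library totals were 13875951 to 17921815 counts in controls and 14149734 to 16412579 in K5-RANKL. Tnfsf11, the induced gene, had 3.78, 1.86 and 0.938 CPM (counts per 1e6 of scaled library size) in the 3 controls and 701, 405 and 723 CPM in the 3 K5-RANKL libraries (log2 fold change 8.15, SE 0.53, edgeR adjusted p = 0.000155), which matches the labels in all 6. The 7 acinar markers were all lower (edgeR, 6 of 7 by library totals), with a summed level of 97985 to 100779 CPM in controls and 17414 to 25632 CPM in K5-RANKL. Most of that sum was Prol1, with group means of 65383 and 19099 CPM. The TMM scaling factors of edgeR, which set libraries level over most genes, were 0.677 to 0.735 in controls and 1.32 to 1.47 in K5-RANKL. All CPM values and fold changes here use the TMM scale unless library totals are named. Scaling by library totals in its place moved the median log2 fold change of all 14044 tested genes from 0.01 to 1.01, and such values are read relative to that median.

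On the TMM scale, 21 of the 32 measured members (65.6%) were higher in K5-RANKL and 2 (6.25%) were lower, at an adjusted p below 0.05 in edgeR's quasi-likelihood test with Benjamini-Hochberg adjustment over all tested genes. Over all tested genes 34.2% were higher and 32.1% were lower. The 2 lower members were Bcl2l2 and Casp6. The median log2 fold change of the members was 0.65, against 0.01 over all genes, and the members ranged from -1.07 to 3.56. Of the members, 8 (25.0%) were higher by at least 2-fold, against 16.9% of all tested genes, and these 8 were Pmaip1, Ripk3, Mlkl, Bok, Bid, Bak1, Apaf1 and Trp53. For 21 members every K5-RANKL library lay above every control library, which was so for 36.3% of all tested genes.

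Scaled by library totals, 30 members were higher, none was lower, and Bcl2l2 and Casp6 were not called, while 83.5% of all tested genes were higher and 4.97% were lower. Relative to the median of all genes the members' median was 0.64 on the TMM scale and 0.64 on library totals. A change of scale shifts every gene's log2 fold change by about the same amount. This match therefore follows from the arithmetic and is no check of the result. Bulk tissue cannot tell fewer cells of a type from less RNA per cell, and this holds for each difference below. Counts per gene do not report protein, cleavage of caspases or the number of dying cells.

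**Figure D1:**
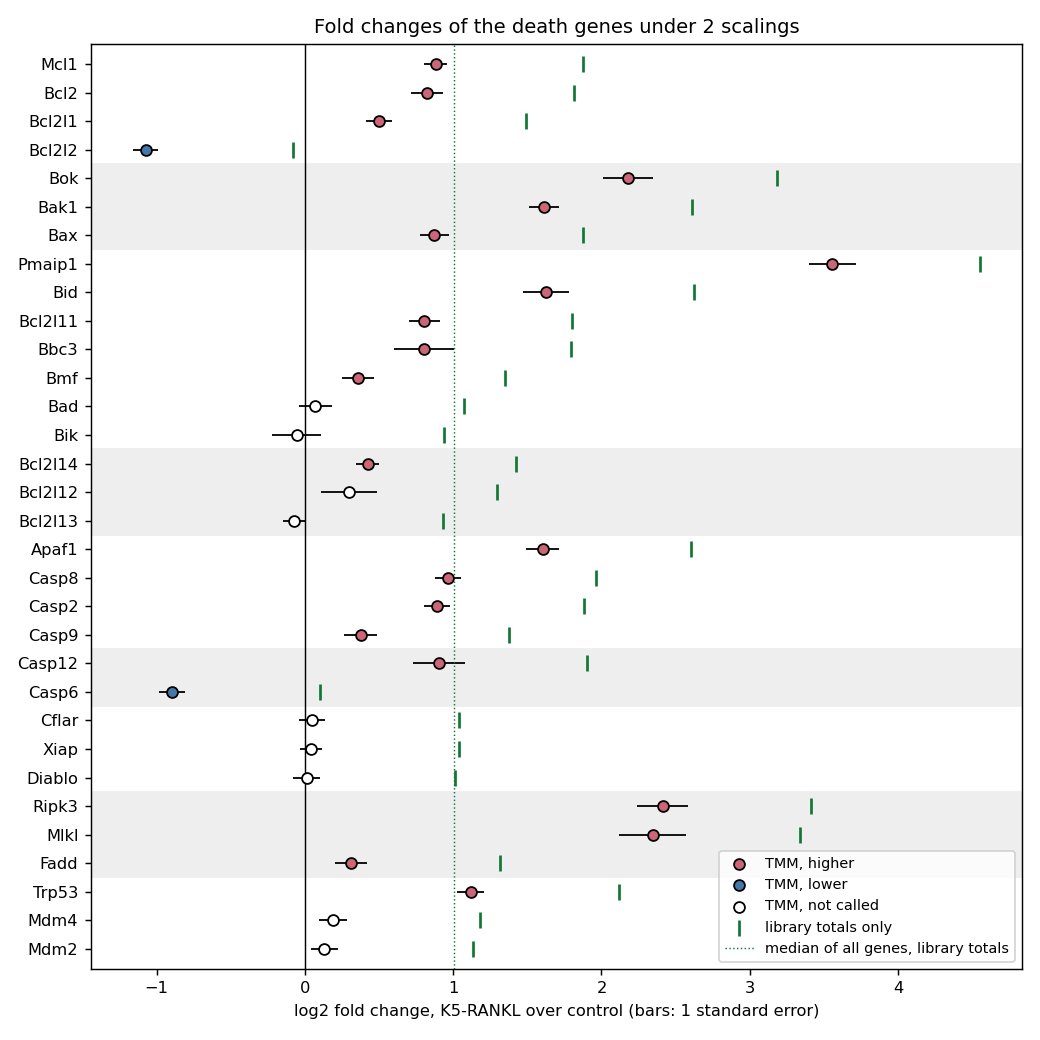
Log2 fold change (K5-RANKL over control) of the 32 measured members grouped by role. Circles are TMM values with a bar of 1 SE and the call as colour, green ticks are values by library totals, and the dotted line is the median of all genes on that scale (1.01). Pmaip1, Ripk3 and Mlkl stand farthest to the right, and Bcl2l2 and Casp6 are the 2 members called lower on the TMM scale.

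Promoter sequences of the members are shown first for genes whose behaviour the results turn on: Trp53, its textbook targets Bax, which rose, and Mdm2, which did not pass the test, Bcl2l1, a known NF-κB target, and Ripk3, which was among the members with the largest differences. Each run is 300 bases, 250 before and 50 after the annotated start, read 5′ to 3′ on the gene's strand, from RefSeq on GRCm38.p6. Capitals mark a match to the consensus of a p53 half-site or of a κB site, the element that NF-κB binds, each searched on both strands by its name's standard consensus. The 5 windows are Trp53 at chr11:69580109-69580408 (+), Bax at chr7:45466849-45467148 (-), Mdm2 at chr10:117710709-117711008 (-), Bcl2l1 at chr2:152830668-152830967 (-) and Ripk3 at chr14:55788808-55789107 (-), where the sign after each range is the strand.
Trp53: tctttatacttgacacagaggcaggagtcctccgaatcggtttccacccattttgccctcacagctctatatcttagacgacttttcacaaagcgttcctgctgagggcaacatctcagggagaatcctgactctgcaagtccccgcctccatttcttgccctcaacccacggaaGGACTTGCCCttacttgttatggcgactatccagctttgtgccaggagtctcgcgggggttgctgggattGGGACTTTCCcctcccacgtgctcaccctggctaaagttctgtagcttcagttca
Bax: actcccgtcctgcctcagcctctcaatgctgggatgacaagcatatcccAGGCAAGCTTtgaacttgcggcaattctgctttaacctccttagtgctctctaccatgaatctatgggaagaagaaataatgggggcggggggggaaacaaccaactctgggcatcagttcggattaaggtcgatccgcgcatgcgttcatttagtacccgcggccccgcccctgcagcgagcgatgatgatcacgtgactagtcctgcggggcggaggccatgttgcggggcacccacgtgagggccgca
Mdm2: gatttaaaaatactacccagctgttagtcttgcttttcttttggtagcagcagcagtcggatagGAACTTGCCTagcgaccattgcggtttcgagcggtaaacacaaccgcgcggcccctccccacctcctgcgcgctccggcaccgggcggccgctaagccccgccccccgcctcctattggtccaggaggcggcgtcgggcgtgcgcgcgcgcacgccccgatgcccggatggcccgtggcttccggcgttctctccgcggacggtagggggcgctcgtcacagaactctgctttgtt
Bcl2l1: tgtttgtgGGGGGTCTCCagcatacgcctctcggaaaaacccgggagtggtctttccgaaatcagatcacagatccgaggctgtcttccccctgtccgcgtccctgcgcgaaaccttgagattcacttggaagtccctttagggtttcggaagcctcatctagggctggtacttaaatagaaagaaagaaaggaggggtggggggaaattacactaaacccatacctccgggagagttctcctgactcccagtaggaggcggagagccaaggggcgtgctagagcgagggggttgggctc
Ripk3: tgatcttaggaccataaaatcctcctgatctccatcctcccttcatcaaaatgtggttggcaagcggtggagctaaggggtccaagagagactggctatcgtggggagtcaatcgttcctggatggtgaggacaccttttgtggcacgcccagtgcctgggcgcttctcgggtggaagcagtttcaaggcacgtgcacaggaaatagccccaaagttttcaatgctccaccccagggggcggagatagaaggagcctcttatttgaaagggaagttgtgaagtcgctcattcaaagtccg

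The Trp53 window held both kinds of match, a p53 half-site that begins 75 bases before the start and a κB match that begins 5 bases before it. The p53 half-site matches began 201 bases before the start in Bax and 186 bases before it in Mdm2. The κB match of Bcl2l1 began 242 bases before the start, in the one of its 3 listed promoters that is printed. Its other listed promoters held no κB match, and the Ripk3 window held neither kind. RefSeq promoter entries were found for 32 of the 34 members, and Bik and Pmaip1 had none. A κB match was present in 6 of these 32 (Bbc3, Bcl2l1, Bmf, Hrk, Trp53 and Xiap), against 12.4% of 10952 tested genes with an entry. Hrk and Casp14 are among the 32 but had too few counts to test. Counted per promoter, a κB match was in 6 of the members' 44 promoters, against 8.46% of all 32851 promoters of this length. A p53 half-site match was present in 4 of 32 (Bax, Bmf, Mdm2 and Trp53), against 8.33% of tested genes with an entry. The interferon response motif bound by IRF factors was found in Cflar only (3.87% of tested genes) and TTCNNNGAA, the core bound by STAT factors, in Casp12 only (8.29%). A match is a description of these letters and not a bound site.

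Among the 4 prosurvival genes, Mcl1, Bcl2 and Bcl2l1 rose and Bcl2l2 fell. Mcl1 (Entrez 17210, chr3:95658788-95663176 on GRCm38, GENCODE M21), the short-lived prosurvival protein that holds BAK1 and the BH3-only proteins BIM and NOXA, was at 131, 131 and 111 CPM in controls and 222, 239 and 227 CPM in K5-RANKL. The K5-RANKL libraries were all above the controls, from 125 ± 11.7 to 229 ± 8.39 CPM (mean ± SD, n = 3 each; log2 fold change 0.88, SE 0.08, edgeR adjusted p = 3.303e-08). Bcl2 (Entrez 12043, chr1:106538178-106714274), the founding member of the family, was at 9.95, 11.4 and 9.69 CPM in controls and 17.6, 19.6 and 17.6 CPM in K5-RANKL, without overlap (log2 fold change 0.82, SE 0.11, edgeR adjusted p = 2.773e-06). Bcl2l1 (Entrez 12048, chr2:152780668-152831728), which encodes BCL-XL, had 31.2, 29.3 and 30.4 CPM in controls and 38.3, 47.6 and 42.9 CPM in K5-RANKL. Its groups also did not overlap, and its rise was the smallest of the 3 (log2 fold change 0.50, SE 0.09, edgeR adjusted p = 0.0001015).

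Bcl2l2 (Entrez 12050, chr14:54883377-54888234), which encodes the prosurvival protein BCL-W, went the other way. It was at 100, 93.7 and 98.5 CPM in controls and 43.4, 52.3 and 43.4 CPM in K5-RANKL, a 2.11-fold fall with every K5-RANKL library below every control (log2 fold change -1.07, SE 0.08, edgeR adjusted p = 4.525e-09). By library totals its log2 fold change was -0.08 (edgeR adjusted p = 0.409), which is -1.09 relative to the median of all genes on that scale. Of its 4079 exon bases, 594 are shared with Gm20521 on the same strand, and reads there cannot be assigned to one of them.

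The pore-forming genes Bax, Bak1 and Bok all rose (median log2 fold change 1.61). Bax (Entrez 12028, chr7:45461697-45466898) was at 13.7, 13.1 and 15.3 CPM in controls and 27.2, 25.3 and 24.8 CPM in K5-RANKL (log2 fold change 0.87, SE 0.10, edgeR adjusted p = 3.65e-07). Bak1 (Entrez 12018, chr17:27019810-27029009), its partner on the mitochondrial membrane, was at 11.1, 11.8 and 12.7 CPM in controls and 39.4, 33.2 and 35.9 CPM in K5-RANKL, a 3.06-fold rise (log2 fold change 1.61, SE 0.10, edgeR adjusted p = 2.392e-10). Bok (Entrez 51800, chr1:93685660-93695764), a relative of BAX and BAK1 found mainly at the endoplasmic reticulum, was at 3.04, 2.26 and 3.36 CPM in controls and 15.0, 11.2 and 13.4 CPM in K5-RANKL, a 4.52-fold rise (log2 fold change 2.18, SE 0.17, edgeR adjusted p = 4.976e-09). None of the 3 genes had overlapping groups. The fold change was largest in Bok and smallest in Bax. Bak1 shares exon bases with Ggnbp1 on the opposite strand (177 of 2387) and Bax shares 192 of 867 with Gm45808 on the same strand.

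Of the 8 BH3-only genes, 7 were measured, 5 rose and 2 did not pass the test. Pmaip1 (Entrez 58801, chr18:66458533-66465565), which encodes NOXA, a p53 and stress target that binds MCL1, had the largest fold change of all members. It was at 1.93, 1.18 and 1.49 CPM in controls, from 21, 12 and 19 counts, and at 18.1, 17.8 and 18.5 CPM in K5-RANKL, from 437, 333 and 398 counts. The groups lay far apart, with an 11.8-fold rise from 1.53 ± 0.381 to 18.2 ± 0.365 CPM (mean ± SD, n = 3 each; log2 fold change 3.56, SE 0.16, edgeR adjusted p = 3.678e-12). Bid (Entrez 12122, chr6:120891930-120916853), which caspase-8 cleaves to link death receptors to mitochondria, was at 3.59, 4.61 and 5.40 CPM in controls and 16.1, 13.2 and 12.9 CPM in K5-RANKL. Its groups did not overlap either (3.09-fold, log2 fold change 1.63, SE 0.15, edgeR adjusted p = 5.626e-08).

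The other BH3-only genes had smaller fold changes. Bcl2l11, which encodes BIM, rose 1.75-fold, from 13.1 to 14.5 CPM in controls to 21.2 to 26.0 CPM in K5-RANKL (log2 fold change 0.81, SE 0.10, edgeR adjusted p = 2.475e-06). Bbc3, which encodes PUMA, the p53-induced killer of the family, rose from 2.11 to 3.83 CPM in controls to 5.06 to 6.10 CPM in K5-RANKL (log2 fold change 0.80, SE 0.20, edgeR adjusted p = 0.00223). Bbc3 and Pmaip1 are both textbook p53 targets, and their log2 fold changes here were 0.80 and 3.56. Bmf, a BH3-only protein tied to loss of attachment, rose by less (log2 fold change 0.36, SE 0.11, edgeR adjusted p = 0.008334), with one K5-RANKL library at 23.4 CPM inside the control range of 19.5 to 23.6 CPM, and it was not called without control 3 (0.29, edgeR adjusted p = 0.0547). Bad, which growth factor signalling holds inactive, had 11.2 to 14.6 CPM in controls and 12.9 to 14.1 CPM in K5-RANKL (log2 fold change 0.07, SE 0.11, edgeR adjusted p = 0.604), and 517 of its 2393 exon bases lie opposite exons of Gpr137. Bik, another BH3-only killer, had 5.16 to 6.57 CPM and 5.03 to 6.31 CPM (log2 fold change -0.06, SE 0.16, edgeR adjusted p = 0.775).

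**Figure D2:**
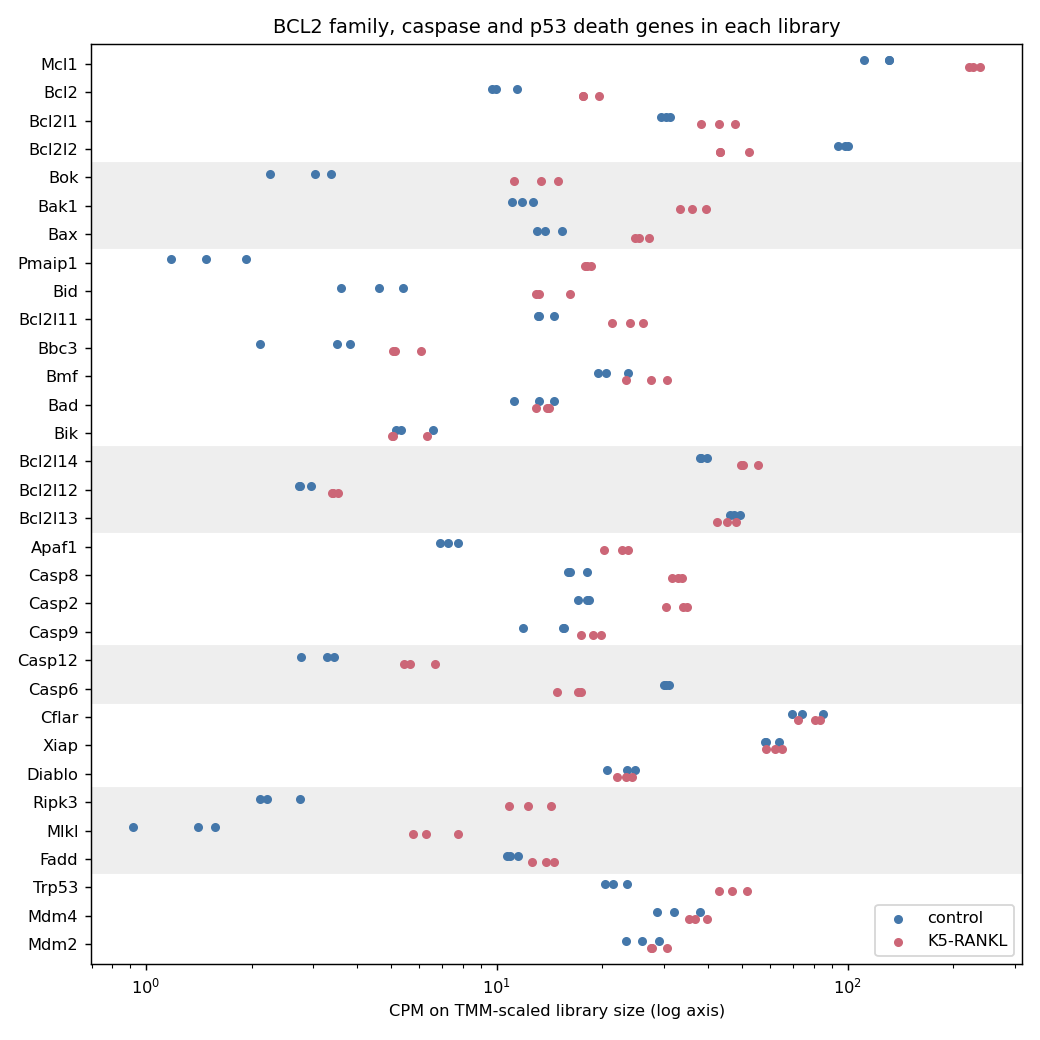
CPM (log axis, TMM-scaled library size) of the 32 measured members, 1 point for each of the 3 control and 3 K5-RANKL libraries, grouped by role. Pmaip1 lies between 1.18 and 1.93 CPM in controls and between 17.8 and 18.5 CPM in K5-RANKL, while Bcl2l2 and Casp6 are lower in all 3 K5-RANKL libraries.

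Of the 3 remaining BCL2-like genes, 1 rose. Bcl2l14, a family member of limited study, rose from 38.0 to 39.8 CPM in controls to 49.6 to 55.4 CPM in K5-RANKL (log2 fold change 0.42, SE 0.08, edgeR adjusted p = 0.0001124). Bcl2l13, a mitochondrial outer membrane protein with a role in mitophagy, had 46.2 to 49.2 CPM and 42.4 to 48.1 CPM (log2 fold change -0.07, SE 0.08, edgeR adjusted p = 0.425). Bcl2l12 had 2.74 to 2.95 CPM in controls and 3.40 to 3.53 CPM in K5-RANKL. Its groups did not overlap, yet the difference did not pass the test (log2 fold change 0.30, SE 0.19, edgeR adjusted p = 0.172), and 257 of its 1075 exon bases lie opposite exons of Gm15545.

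All 4 genes of the initiator group rose (median log2 fold change 0.93). Apaf1 (Entrez 11783, chr10:90989311-91082770), the scaffold of the apoptosome, was at 7.28, 6.87 and 7.74 CPM in controls and 22.7, 20.3 and 23.7 CPM in K5-RANKL, a 3.04-fold rise without overlap (log2 fold change 1.60, SE 0.11, edgeR adjusted p = 1.037e-09). Casp9 (Entrez 12371, chr4:141793612-141815976), the initiator caspase that APAF1 recruits, was at 15.5, 11.9 and 15.6 CPM in controls and 17.3, 19.8 and 18.8 CPM in K5-RANKL. Its groups were separate but close (log2 fold change 0.37, SE 0.11, edgeR adjusted p = 0.006718), and over the alternatives run its adjusted p reached 0.0497. Casp8 (Entrez 12370, chr1:58795374-58847503), the initiator that death receptors engage, was at 16.1, 16.0 and 18.1 CPM in controls and 33.6, 31.7 and 32.8 CPM in K5-RANKL (log2 fold change 0.96, SE 0.09, edgeR adjusted p = 3.661e-08), again without overlap. Casp2, an initiator tied to DNA damage and p53, rose from 17.0 to 18.3 CPM in controls to 30.4 to 34.8 CPM in K5-RANKL (log2 fold change 0.89, SE 0.09, edgeR adjusted p = 1.283e-07).

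The caspases outside the initiator group went in different directions. Casp6 (Entrez 12368, chr3:129901425-129914103), an executioner caspase that cleaves lamins, was at 29.9, 30.4 and 31.0 CPM in controls and 14.9, 17.3 and 17.0 CPM in K5-RANKL. Its K5-RANKL libraries were all below its controls, a 1.86-fold fall (log2 fold change -0.90, SE 0.09, edgeR adjusted p = 1.061e-07). By library totals its log2 fold change was 0.10 (edgeR adjusted p = 0.378), which is -0.91 relative to the median of all genes on that scale. Casp12, a rodent inflammatory-type caspase of the endoplasmic reticulum, rose from 2.76 to 3.43 CPM in controls to 5.43 to 6.66 CPM in K5-RANKL (log2 fold change 0.90, SE 0.17, edgeR adjusted p = 0.0002068). Casp14, the caspase of cornifying epidermis, had no count, which per library allows up to 0.294 CPM in a control and 0.16 CPM in a K5-RANKL library.

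The 3 genes that hold caspases back or release them did not pass the test, and their median log2 fold change was 0.04. Xiap, a direct inhibitor of caspases, had 58.2 to 63.7 CPM in controls and 58.4 to 65.0 CPM in K5-RANKL (log2 fold change 0.04, SE 0.08, edgeR adjusted p = 0.655). Diablo, which encodes SMAC, the mitochondrial protein that displaces XIAP, had 20.6 to 24.8 CPM and 22.0 to 24.2 CPM (log2 fold change 0.01, SE 0.09, edgeR adjusted p = 0.925), and 1193 of its 3631 exon bases are shared with Gm49027 on the same strand. Cflar, which encodes FLIP, the caspase-8-like protein that blocks death receptor signalling, had 69.5 to 85.2 CPM and 72.4 to 83.2 CPM (log2 fold change 0.05, SE 0.09, edgeR adjusted p = 0.638). The groups of all 3 overlapped, and by library totals all 3 were called higher, as were most genes.

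Fadd, Ripk3 and Mlkl all rose, Fadd least. Ripk3 (Entrez 56532, chr14:55784995-55788865), the necroptosis kinase, was at 2.21, 2.75 and 2.11 CPM in controls and 14.3, 10.8 and 12.2 CPM in K5-RANKL (5.33-fold, log2 fold change 2.41, SE 0.17, edgeR adjusted p = 1.55e-09). Mlkl (Entrez 74568, chr8:111311797-111338177), its substrate that permeabilises the plasma membrane, was at 0.921, 1.57 and 1.41 CPM in controls, from 10, 16 and 18 counts, and at 7.76, 5.77 and 6.29 CPM in K5-RANKL, from 187, 108 and 135 counts. Neither gene had overlapping groups, and the Mlkl difference was 5.08-fold (log2 fold change 2.35, SE 0.22, edgeR adjusted p = 6.817e-08). Fadd, the adaptor of death receptors, went from 10.7 to 11.5 CPM in controls to 12.6 to 14.5 CPM in K5-RANKL (log2 fold change 0.31, SE 0.11, edgeR adjusted p = 0.0166). The Fadd call was lost with DESeq2 (adjusted p = 0.0673), without control 3 (edgeR adjusted p = 0.051) and without K5-RANKL 3 (edgeR adjusted p = 0.0861).

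Of p53 and its regulators, Trp53 alone passed the test. Trp53 (Entrez 22059, chr11:69580359-69591873), whose promoter is printed above, was at 21.4, 20.3 and 23.5 CPM in controls and 51.8, 43.1 and 46.8 CPM in K5-RANKL, a 2.17-fold rise without overlap (log2 fold change 1.12, SE 0.09, edgeR adjusted p = 1.032e-08). Mdm2 (Entrez 17246, chr10:117688875-117710758), the ubiquitin ligase that is both a p53 target and its main brake, was at 28.9, 23.4 and 25.9 CPM in controls and 30.5, 27.4 and 27.7 CPM in K5-RANKL, with overlapping groups (log2 fold change 0.13, SE 0.09, edgeR adjusted p = 0.221). Mdm4, its non-catalytic partner, had 28.5 to 37.9 CPM in controls and 35.3 to 39.8 CPM in K5-RANKL (log2 fold change 0.19, SE 0.10, edgeR adjusted p = 0.0965). Mdm4 was called higher without the filter on low counts (0.21, edgeR adjusted p = 0.0492) and without control 2 (0.30, edgeR adjusted p = 0.0141).

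To see how partner genes stood to each other, 13 pairs of members were compared as a log2 ratio of counts within each library, which no scaling between libraries can change. The size and sign of a ratio depend on the lengths of both genes, so only its difference between the groups is read, not which gene had the higher level. With 3 libraries a side, the smallest p of a two-sided exact permutation test is 0.10, so no pair could pass 0.05. In 7 pairs the groups did not overlap, and each had an exact permutation p of 0.10 (adjusted over the 13 pairs, 0.186). The ratio of Pmaip1 to Mcl1, a killer against the protein it binds, went from a mean of -6.33 to -3.66, a difference of 2.67 on the log2 scale or 6.37-fold. Ripk3 gained on Casp8, whose protease activity blocks necroptosis, by 1.41 (from -2.81 to -1.40), and Cflar lost against Casp8 by a difference of -0.92 (from 2.18 to 1.26). Casp9 fell against Apaf1, with a difference of -1.21 (from 0.96 to -0.25). Mdm2 fell against Trp53 with a difference of -0.98 (from 0.26 to -0.72), and Bax against Bak1 with a difference of -0.73 (from 0.24 to -0.49). The 7 pairs also held Bcl2l1 against Bcl2, with a smaller difference of -0.32.

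The other 6 pairs overlapped. The ratio of Bax to Bcl2, often used as an index of readiness for apoptosis, differed by 0.06 (exact permutation p = 0.80, n = 3 each), with 0.46, 0.20 and 0.66 in controls and 0.63, 0.37 and 0.49 in K5-RANKL. Mcl1 to Bcl2 differed by 0.06 (exact permutation p = 0.40), Bcl2l11 to Bcl2 by -0.02 (exact permutation p = 0.90) and Bbc3 to Mcl1 by -0.07 (exact permutation p = 0.80). Mdm4 to Mdm2 differed by 0.06 (exact permutation p = 0.80) and Xiap to Diablo by 0.03 (exact permutation p = 0.90). In these pairs the libraries of the groups were mixed, in contrast to the ratio of Pmaip1 to Mcl1.

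**Figure D3:**
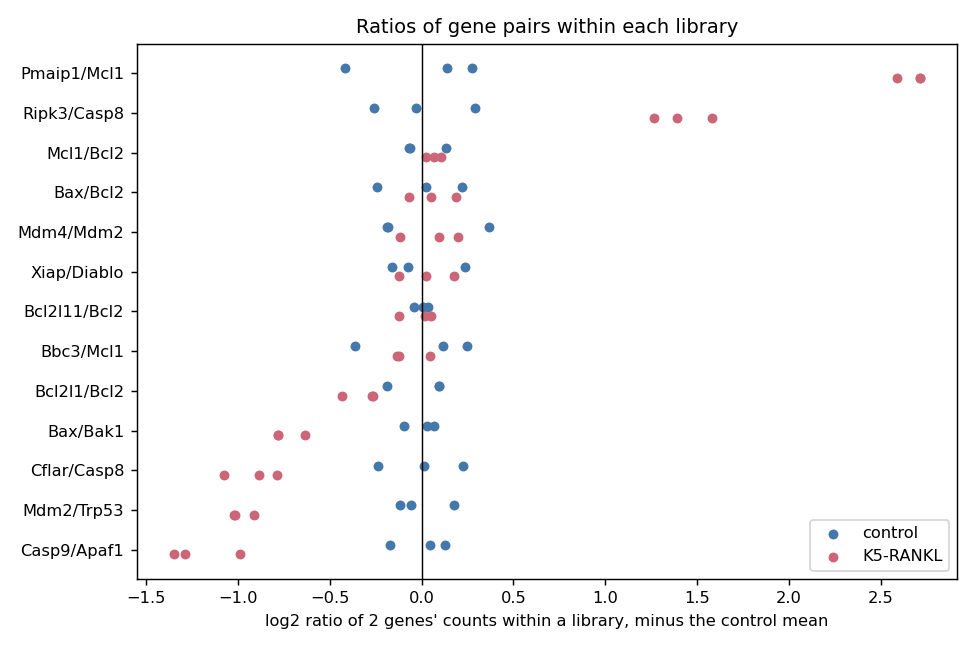
Log2 ratio of counts within each library for the 13 gene pairs, shown after subtracting the pair's control mean, 1 point per library and colour by group. The K5-RANKL points of Pmaip1/Mcl1 stand 2.67 above the controls on average, and the points of Bax/Bcl2 are mixed between the groups.

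Levels of different genes were compared per kilobase of exon (CPM per kb). Mcl1 had the highest level of the 32 measured members in both groups, 36.5 CPM per kb in controls and 67.1 in K5-RANKL. Behind it in controls came Bcl2l2 at 23.9 and Casp6 at 20.9 CPM per kb, which in K5-RANKL were sixth and eighth in order at 11.4 and 11.3. Their places were taken by Bax, from 16.2 to 29.7 CPM per kb, and Trp53, from 11.6 to 25.3. Bak1 moved from rank 16 to rank 5 (4.96 to 15.2 CPM per kb) and Pmaip1 from rank 32, the lowest measured level, to rank 15 (0.561 to 6.64). Bcl2 was near the bottom in both groups, at 1.13 and 1.99 CPM per kb. Ranks depend on the length used. By the longest transcript, the K5-RANKL ranks were 8 for Bcl2l2, 10 for Casp6, 6 for Bak1 and 17 for Pmaip1.

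**Figure D4:**
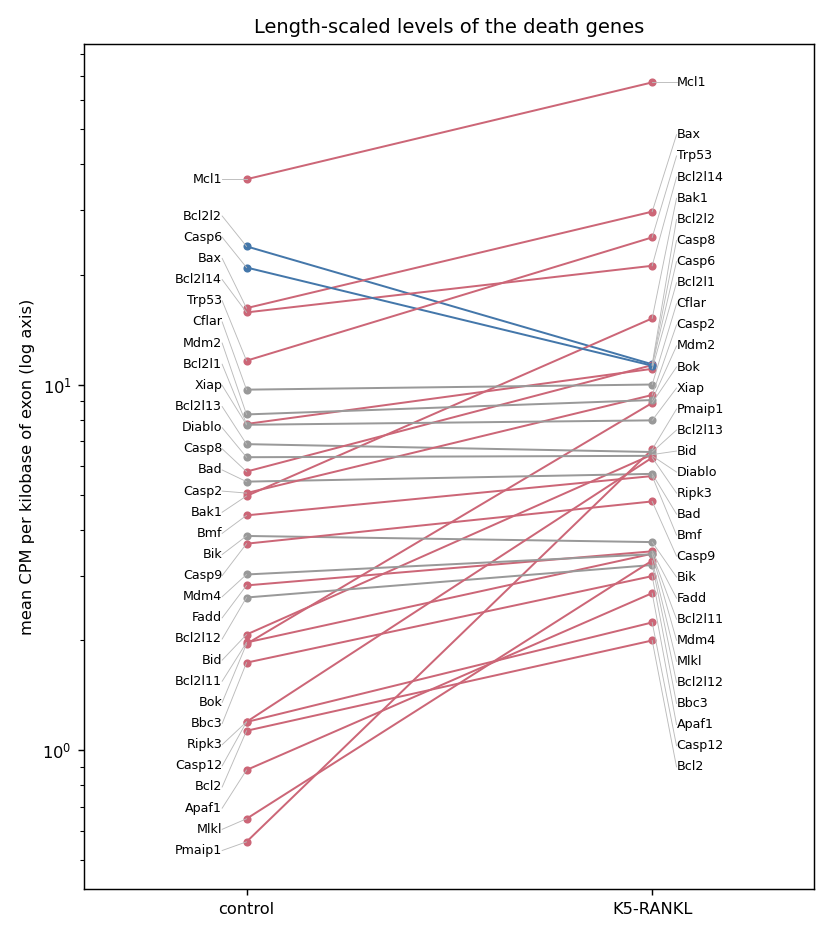
Mean level per kilobase of exon (CPM per kb, log axis) of the 32 measured members in control and K5-RANKL, joined by a line per gene that is red where called higher, blue where lower and grey where not called. Mcl1 is highest in both groups, Bcl2l2 and Casp6 slope down, and Pmaip1 has the steepest rise, from 0.561 to 6.64 CPM per kb.

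Other genes of the same pathways were read from 8 lists, of which 78 of 81 genes were measured, with 46 (59.0%) higher, 9 (11.5%) lower and 23 not passing the test in edgeR. As for the members, the shares to read each list against are the 34.2% of all tested genes that were higher and the 32.1% that were lower. Of 25 p53 target genes, 13 (52.0%) were higher, 3 lower and 9 did not pass, with a median log2 fold change of 0.35. Cdkn1a, the p53-induced cell cycle inhibitor p21, was at 5.62, 3.92 and 4.85 CPM in controls and 50.7, 42.5 and 44.9 CPM in K5-RANKL (log2 fold change 3.26, SE 0.12, edgeR adjusted p = 4.985e-13). The stress gene Gadd45a (log2 fold change 1.83) and the death receptor gene Tnfrsf10b (2.41) also rose, at edgeR adjusted p = 1.195e-09 and 4.721e-09. Other textbook targets did not pass the test: Ccng1 was at -0.05, Zmat3 at 0.08, Phlda3 at 0.20 and Perp at 0.15 on the log2 scale, like the member Mdm2. The 3 lower targets, named here because they are few, were Ei24 (-0.82), Ddb2 (-0.82) and Rrm2b (-0.44), and by library totals Ei24 and Ddb2 were not called and Rrm2b was higher.

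Among 12 p53 paralogs and regulators, 4 (33.3%) were higher and 2 (16.7%) lower, and the share higher was near the 34.2% of all tested genes. Chek2, a DNA damage kinase that stabilises p53, fell (log2 fold change -1.50, SE 0.13, edgeR adjusted p = 1.491e-08) and was lower by library totals as well. Atm, the kinase above it, was lower by 0.57 and higher by library totals. Trp63, the paralog that marks basal cells, rose by 1.04 (SE 0.14, edgeR adjusted p = 3.364e-05). Cdkn2a, whose locus encodes p16 and the MDM2 inhibitor ARF, which a count per gene does not separate, had 0, 4 and 0 counts in controls and 30, 20 and 26 in K5-RANKL (edgeR adjusted p = 0.0002475), and its fold change is not given because of the zeros. The other 2 that rose, Chek1 and Trp73, had means of 1.43 and 0.392 CPM in controls and 3.53 and 1.94 CPM in K5-RANKL. With at least 50 counts asked in 3 libraries, 1 of this list was higher.

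Death receptor and inhibitor genes moved mostly upwards. Of 12 death receptors, ligands and adaptors 11 were higher, with a median log2 fold change of 0.93, among them Tnfrsf21 (1.16), Tnfsf10, the ligand TRAIL (1.03), and Fas (1.67, from 3.60 ± 0.573 to 11.5 ± 2.13 CPM). Of 8 inhibitor of apoptosis genes 7 were higher, with a median of 1.69. Birc3, a ubiquitin ligase and well-known NF-κB target, rose from 16.1 ± 2.29 to 75.0 ± 4.78 CPM (log2 fold change 2.22, SE 0.10, edgeR adjusted p = 3.529e-12), and its relative Birc2 rose by 1.40, while the member Xiap did not pass the test. Birc5, which also serves mitosis, rose by 2.30, and Naip2, of a family of near-identical copies, by 0.90. Naip1, Naip5 and Naip6 of that family are also among the 7. Their control counts were 3, 4 and 4 in Naip1, 13, 10 and 11 in Naip5, and 2, 6 and 3 in Naip6. The count of 7 and the median thus rest partly on copies with few counts.

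Among caspases outside the member list, the inflammatory caspases Casp4 and Casp1 rose by 2.63 and 1.98. Of 6 measured other BCL2-related genes 5 were higher, led by Bcl2a1a (4.40), Bcl2a1b (4.23) and Bcl2a1d (2.65), near-identical leukocyte-expressed NF-κB targets whose reads cannot be firmly divided between copies. Bnip3l, a mitophagy receptor, rose by 0.58, and Bnip3 did not pass the test (-0.30). All 4 measured pyroptosis and necroptosis genes rose, Gsdmd, the pore of pyroptosis, by 2.15, Zbp1, an activator of RIPK3, by 2.00, Ripk1 by 0.76 and Ninj1 by 0.38.

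Of 10 genes of mitochondrial release and execution 1 was higher, 4 were lower (against 32.1% of all tested genes) and 5 did not pass, with a median log2 fold change of -0.01. Htra2, a released protease that cleaves inhibitors of apoptosis, rose by 0.59. Cycs, which encodes cytochrome c, the signal for APAF1, was at -0.29 on the log2 scale, Vdac1 at -0.36, Endog at -1.20 and Aifm1, named because the lower genes are few, at -0.26. By library totals 9 of the list were higher and none lower, with Cycs, Vdac1 and Aifm1 among the higher and Endog not called.

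**Figure D5:**
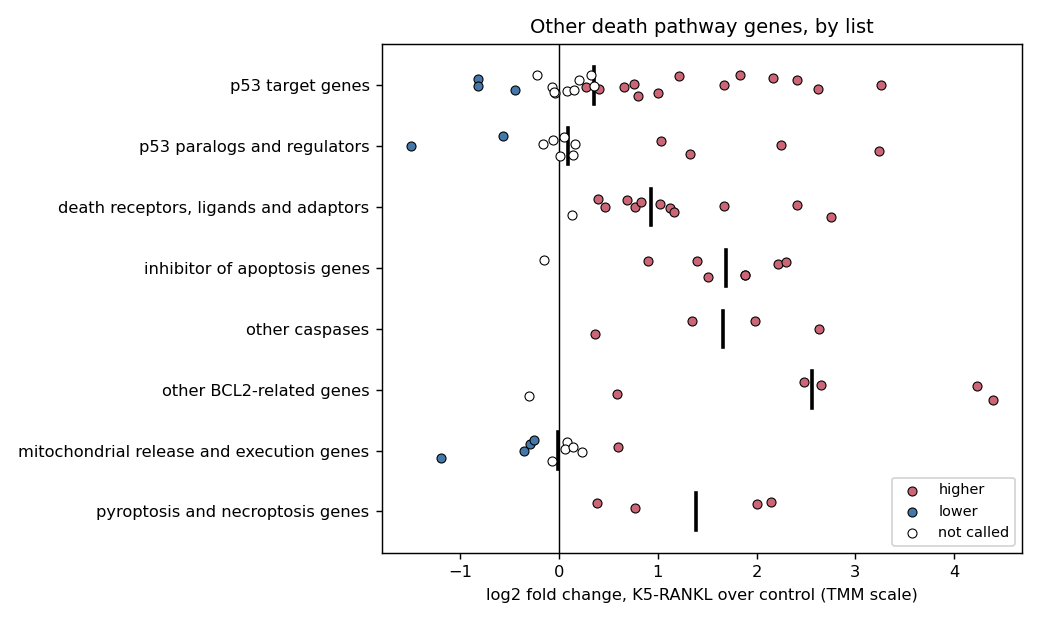
Log2 fold change (TMM scale) of each measured gene in the 8 pathway lists, 1 point per gene with the call as colour and a black bar at the list's median. The median is 1.69 for inhibitor of apoptosis genes, a list that includes the low-count copies Naip1, Naip5 and Naip6. It is -0.01 for mitochondrial release and execution genes.

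Markers of several cell types moved with the groups, and their part in the members' differences was not tested. In edgeR all 5 leukocyte markers were higher, with a summed level of 292 to 324 CPM in controls and 642 to 700 CPM in K5-RANKL, and all 6 macrophage markers were higher, with sums of 326 to 396 and 2184 to 2304 CPM. Most of the macrophage sum was Lyz2, with group means of 210 and 1439 CPM. Neutrophil markers summed to 2.30 to 4.46 and 11.7 to 14.3 CPM (4 of 4 measured higher), T cell markers to 67.9 to 73.2 and 137 to 152 CPM (5 of 6 higher), and fibroblast markers to 430 to 553 and 1693 to 1965 CPM (4 of 5 higher). Duct markers did not move together (2 of 5 higher, 3 lower, and 2 lower by library totals). Their sum spanned 21482 to 23268 CPM across control libraries and 6381 to 8513 CPM across K5-RANKL libraries. Most of it was Klk1, whose group means were 21371 and 7231 CPM, so the fall of the sum is mainly that of 1 gene. Krt19 rose from a mean of 6.07 to 36.96 CPM, and Cftr from 19.7 to 39.3 CPM. Plasma cell markers summed to 764 to 858 and 378 to 456 CPM (2 of 3 measured lower, none by library totals). Most of that sum was Xbp1, with group means of 561 and 309 CPM. Jchain was the other lower marker, with means of 235 and 106 CPM. Mzb1 did not pass the test (log2 fold change 0.14, edgeR adjusted p = 0.411), and Tnfrsf17 had too few counts. B cell markers summed to 117 to 129 and 136 to 151 CPM (2 of 5 higher), endothelial markers to 96.3 to 109.7 and 113 to 119 CPM (2 of 4 higher, 1 lower), and markers of keratinising epithelium to 3.91 to 6.57 and 10.1 to 12.9 CPM (2 of 3 measured higher, 1 lower). The 5 proliferation markers were all higher, with sums of 19.7 to 27.5 and 103 to 179 CPM. Of the 5 basal and myoepithelial markers 3 were higher and 2 lower on the TMM scale (Acta2 and Oxtr, which by library totals were higher and not called), with sums of 255 to 264 and 451 to 824 CPM. K5-RANKL 2 stood apart from the other 2 libraries of its group in 3 of these lists: its median log2 deviation from their mean was -0.63 in proliferation markers (5 of 5 below), -0.52 in basal and myoepithelial markers (4 of 5 below) and 0.46 in acinar markers (7 of 7 above), while its median deviation over the members was -0.03. Without K5-RANKL 2, 21 members were higher and 2 lower, as with it. On the same measure control 1 was at -0.497 in neutrophil markers (4 of 4 below) and -0.305 in macrophage markers (5 of 6 below). Control 3 was at 0.476 in neutrophil markers (4 of 4 above). Over the members control 1 was at -0.04, and without it 21 members were higher.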

How the data were processed

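The deposited table holds raw read counts per gene for the 6 libraries. Per the submitters' processing notes, the authors used STAR on mm10, and the tool that counted reads, its annotation and its strand setting are not given in the sources used. Per the labels' protocols, libraries were made from 250 ng of RNA with a stranded mRNA kit. Every column was assigned to a sample by its name, and 0 columns were left unused. Libraries of a group differed by more than sampling noise, with a mean chi-square per gene of 6.26 to 38.3, so none was counted as a duplicate. The largest values were those of control 1 against control 2 (37.0) and control 3 (38.3), and the smallest was control 2 against control 3. Nothing says that the pools were prepared separately, so p-values measure the spread between these 3 libraries a group.

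From the counts, edgeR 4.0.16 (R 4.3.3) was run with TMM scaling, filterByExpr with a minimum count of 10 and the robust quasi-likelihood test on all 6 libraries, with Benjamini-Hochberg adjustment over 14044 genes and a threshold of 0.05. Standard errors (SE) are the size of the log2 fold change over the root of its F statistic. CPM was computed on TMM-scaled library sizes, without a prior count. Pair ratios had 0.5 added to each count. Exon lengths and coordinates are from GENCODE M21 basic protein-coding annotation on GRCm38, and 10 of the 34 members share exon bases with another gene. The script was tested on simulated data. Alternatives were RLE, upper-quartile and library-total scaling, TMM without the 20 most abundant genes, DESeq2 1.42.0, voom with quality weights (limma 3.58.1), 2 other filters and leaving out each library. Members and lists were chosen with earlier results of these data known. All members are reported. Values in every library are given for those changed at least 2-fold. By rule they are also given for Bcl2, Bcl2l1, Mcl1, Bax, Bak1, Casp8, Casp9, Trp53 and Mdm2, whatever these showed. Casp6, a lower member, is given in the same way outside that rule. For each pathway list the genes with the smallest p, up to 4, are named. A few others are named after their values were seen: p53 targets that were lower or did not pass the test, and single genes of short counts. Some genes of the caspase list are not reported here.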

Additional observations from a re-analysis of the deposited data

How the results depend on the processing

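Over the 14 alternatives, 424 of 448 member results kept their direction and side of the threshold, and 10 changed sign. Without a change of sign, 5 lost the call and 9 gained it. Of the 21 members higher, 19 were higher in every alternative, and Bmf and Fadd were the exceptions. The choice of scale mattered most: by library totals 11733 of all genes were higher and 698 lower, 0 members were lower, and 74 pathway genes were higher and 1 lower. On that scale Bcl2l13 (0.93) and Bik (0.94) changed sign and gained the call, and Casp6 (0.10) changed sign and lost it. By upper-quartile scaling Diablo changed sign (-0.0048). The counts of members higher and lower stayed at 19 to 22 and 2 when each library was left out in turn. The sign changes then concerned values near 0: Bad ranged from -0.0253 to 0.152, Bik from -0.169 to 0.0510, Cflar from -0.0197 to 0.131 and Diablo from -0.0615 to 0.0636. Among ratios, Bax/Bcl2 ranged from -0.0635 to 0.167, Bbc3/Mcl1 from -0.252 to 0.0523, Bcl2l11/Bcl2 from -0.0538 to 0.0348, Mdm4/Mdm2 from -0.0365 to 0.241 and Xiap/Diablo from -0.0545 to 0.143. A count of 3 corresponds to 0.235 to 0.294 CPM in controls and 0.124 to 0.16 CPM in K5-RANKL, which covers counting error only. No paired analysis was possible because the labels give no replicate numbers, and the numbers used here follow accession order.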
